A study of Mus musculus with 8 samples.

Results

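The numbered zinc finger protein genes are the mouse genes whose symbol is Zfp followed by a number. Members were chosen by symbol and by a mean normalized read count of at least 200 over the 8 libraries, and Zfp36, an mRNA-decay factor of another zinc finger class, was left out. Of 332 such symbols in a table of 23141 genes, 244 passed the limit and 88 did not, 21 of which had no read in any library. The limit divided a continuous range. Zfp773, Zfp449 and Zfp3 lay just outside it with means of 173.3, 179.4 and 187.6 normalized counts, and Zfp9, Zfp963 and Zfp128 just inside it with means of 200.4, 200.6 and 201.6. The limit was set on the mean over all libraries, so the levels below are a description of the selection. Ratios between time points did not enter the rule directly, but a large change can carry a gene over the limit, and 4 members had a mean under 200 without their highest library.

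RAW264.7 is a mouse macrophage line. Its cells were left unstimulated (0 min) or exposed to 100 ng/ml lipopolysaccharide (LPS) from E. coli serotype O111:B4 for 15, 30, 45, 60, 75, 90 or 120 min, with no other genotype or agent in the design. RNA depleted of ribosomal RNA was sequenced as 1 library per time point; the labels give the molecule as total RNA and the fraction as cytoplasmic. No time point had a second library, so a difference between times cannot be told apart from a difference between libraries, and no ratio below has a replicate check. Fewer cells expressing a gene and less RNA per cell cannot be told apart either.

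Counts assigned to genes summed to between 100229997 and 159036125 per library. The ribosomal RNA precursor Rn45s took 8.18% to 20.54% of them. All 8 macrophage markers found in the table, such as Csf1r, Itgam and Lyz2, had means of at least 200, whereas none of 5 T cell, 5 B cell, 5 fibroblast and 5 epithelial markers did. The summed level of the T cell list ranged from 23.1 to 41.8 normalized counts, that of the B cell list from 24.3 to 48.1, and those of the fibroblast and epithelial lists from 0 to 0.856 and from 0.890 to 5.65. Defining markers at 0 in every library numbered 1 of the B cell list, 4 of the fibroblast list and 3 of the epithelial list.

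The C2H2 zinc finger is a short fold in which a pair of cysteines and a pair of histidines hold a zinc ion, and tandem arrays of such fingers read DNA base by base. Many vertebrate proteins with long arrays also carry a Krüppel-associated box (KRAB) near the start of the protein, which recruits the corepressor TRIM28 and, through it, the histone methyltransferase SETDB1 and heterochromatin proteins. Such proteins are known for silencing retroelements and imprinted loci, and they lie in clusters that arose by tandem duplication. Other genes of the series act in RNA processing, ribosome assembly or ubiquitin transfer.

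Coding sequences of 242 members were translated, and 237 of them held at least 1 finger by the spacing of its cysteines and histidines, with a median of 10 and a maximum of 33. In 213 of them at least 1 finger was followed by the next at exactly 28 residues. The coding unit of 84 bases for the first such finger is shown for 5 members to which the results return, Zfp61 and Zfp94 as neighbours that fell at 60 min, Zfp811 and Zfp871 as neighbours that rose by 120 min, and Zfp420 as a transient riser. All are coding exon sequence of build GRCm38, printed 5′ to 3′ on the coding strand, with the codons of the zinc-binding cysteines and histidines in capitals.
Zfp61 (chr7:24291705-24291788, minus strand): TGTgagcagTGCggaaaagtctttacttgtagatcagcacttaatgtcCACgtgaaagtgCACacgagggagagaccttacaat
Zfp94 (chr7:24303440-24303523, minus strand): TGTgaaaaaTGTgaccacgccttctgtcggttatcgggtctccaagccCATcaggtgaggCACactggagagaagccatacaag
Zfp811 (chr17:32798399-32798482, minus strand): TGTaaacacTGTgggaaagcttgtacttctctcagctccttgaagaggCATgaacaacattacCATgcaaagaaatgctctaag
Zfp871 (chr17:32775534-32775617, minus strand): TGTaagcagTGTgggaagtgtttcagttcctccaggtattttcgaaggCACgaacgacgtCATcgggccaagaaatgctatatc
Zfp420 (chr7:29874447-29874530, plus strand): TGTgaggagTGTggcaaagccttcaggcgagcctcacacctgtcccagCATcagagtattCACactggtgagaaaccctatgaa

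Over the 10 pairs of these units, 35 to 55 of 84 bases were equal. The pair of Zfp811 and Zfp871, which starts at residue 195 in both proteins, shared 55, and Zfp61 and Zfp94 shared 46. Reads of 58 bases that matched more than 1 gene were discarded upstream. Of the 243 members with an annotated transcript, 159 had only 58-base stretches that occur in no other gene of the table, and 10 had under 90% of such stretches. The lowest share was 22.0% for Zfp97, and Zfp91 had 57.7%. Counts of these 10 members are therefore uncertain.

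Levels per length, as reads per kilobase of unique 58-base stretches and per 1000000 counted reads (rpkm), had a median of 3.54 over the members in unstimulated cells, against 12.1 over all genes with the same mean limit. The 5 highest levels belonged mostly to genes with few fingers. Zfp207, which binds the spindle checkpoint protein BUB3, stood at 58.9 rpkm. Zfp330, a nucleolar protein, stood at 48.0 rpkm and Zfp91, an E3 ubiquitin ligase, at 41.2 rpkm. Zfp710 stood at 34.4 rpkm and the RNA-binding protein Zfp106 at 34.2 rpkm. Of these 5 only Zfp710, with 11 fingers, was called different from 0 min at any time by the rule given below, and Zfp330 had a log2 ratio of 0.55 at 120 min without being called.

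The median of the family was lowest at 60 min and lay close to that of all genes at 120 min. On the scale of the log2 ratio to 0 min, the median over the 244 members was 0.12 and 0.05 after 15 and 30 min. It sank to -0.12 and -0.23 after 45 and 60 min, came back to -0.09 and -0.04 after 75 and 90 min, and ended at 0.02. Over the 10039 genes with the same mean limit the median stayed between -0.01 and 0.02. At 60 min the members' lower and upper quartiles were -0.68 and 0.10, against -0.15 and 0.16 for all genes. The members' distribution thus widened mainly downwards at 60 min, while at 15 min its quartiles were 0.04 and 0.22. Other scales shifted all genes together: total counts put the median of all genes at -0.21 at 120 min, and spike-in reads put it at -0.30 at 60 min. Relative to the median of all genes, which a common scale factor leaves unchanged, the members' median was -0.23 at 60 min and 0.03 at 120 min. On the plain ratio the sign at 120 min turned, to -0.18 with total counts and -0.09 with spike-in reads. No test of the difference between members and other genes was made.

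**Figure D1:**
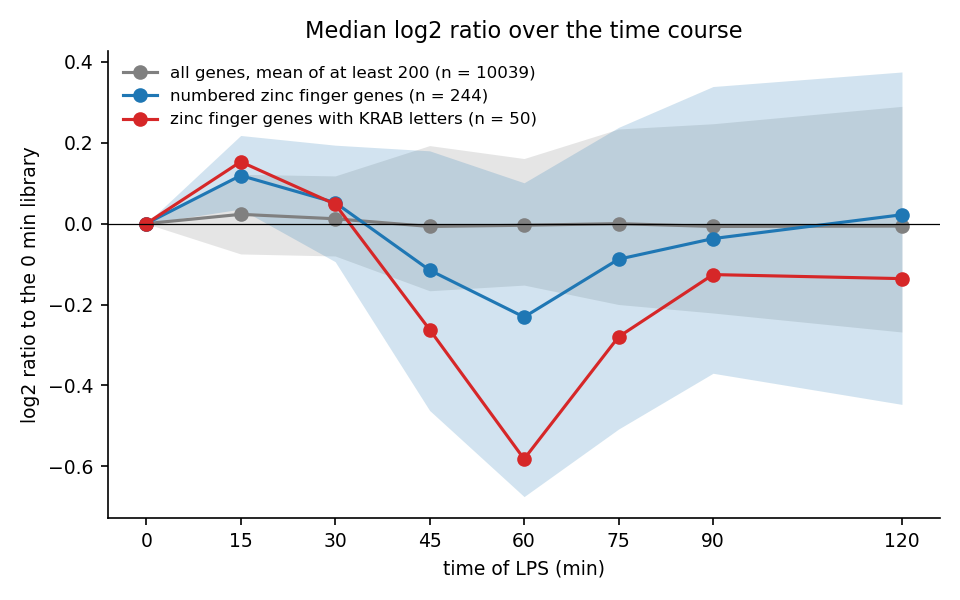
Median log2 ratio of normalized counts to the 0 min library (vertical axis) against time of LPS in min (horizontal axis) for the 244 numbered zinc finger genes, the 50 of them with KRAB letters and all 10039 genes with a mean of at least 200. Shaded bands are the quartiles of the first and last set; the members reach -0.23 and those with KRAB letters -0.58 at 60 min, while the line for all genes stays near 0.

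A gene was called higher or lower where its log2 ratio between a pair of libraries lay beyond 0.5 and the unadjusted p-value of an exact negative binomial test, with a dispersion estimated across the 8 libraries as if they were replicates, was under 0.05. The call compares libraries, not conditions. At 60 min the smallest absolute log2 ratio called among the members was 0.71.

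Downward calls among the members appeared at 45 min, were most frequent at 60 min and were still above their share over all genes at 120 min. None of the 244 members was called higher or lower at 15 min, against 0.279% of all genes higher and 0.139% lower, and at 30 min 0 were higher (1.23% of all genes) and 1 lower (0.189%). At 45 min, 28 members (11.5%) were lower against 1.71% of all genes, and 10 (4.10%) were higher against 4.69%. At 60 min, 58 members (23.8%) were lower against 2.92% of all genes, and 13 (5.33%) were higher against 3.96%. The share of upward calls thus stayed near that of all genes while the share of downward calls exceeded it. At 75 min 33 members were lower (3.91% of all genes) and 11 higher (6.25%), and at 90 min 26 were lower (5.14%) and 12 higher (7.11%). At 120 min 36 members (14.8%) were lower against 8.30% of all genes and 22 (9.02%) higher against 9.18%. Scaling by total counts left 57 (23.4%) lower and 7 (2.87%) higher at 60 min, against 2.72% and 2.87% of all genes on that scale, and 40 (16.4%) lower and 8 (3.28%) higher at 120 min, against 9.89% and 4.70%. Scaling by spike-in reads gave 77 (31.6%) lower and 4 (1.64%) higher at 60 min, against 5.03% and 2.16% of all genes, and 36 (14.8%) lower and 10 (4.10%) higher at 120 min, against 8.16% and 5.46%. On each scale the share lower at 60 min thus lay above that of all genes on the same scale. With Benjamini-Hochberg adjustment 23 members (9.43%) were lower and 4 (1.64%) higher at 60 min, against 0.767% and 2.19% of all genes, and 20 (8.20%) were lower and 9 (3.69%) higher at 120 min, against 4.36% and 4.92%. Each time was compared with the same 0 min library.

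The 60 min library held the lowest normalized count of 83 members (34.0%), against 5.59% of all genes, and the 15 min library held the highest of 89 members (36.5%), against 14.2%. Over all genes the 15 min ratio rose with transcript length. With that trend removed, the members' median log2 ratio at 15 min was 0.067 in place of 0.119. In all, 164 members (67.2%) lay below their 0 min count at 60 min, against 50.7% of all genes. The 60 min library had the second-lowest Rn45s share of the course, 8.27%, close to 8.59% at 0 min, while the 45 and 75 min libraries had 16.64% and 20.54%. The 60 min library also had the highest share of spike-in reads, 0.0316% against 0.0208% to 0.0275% in the others, and the part of either in the result was not tested.

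**Figure D2:**
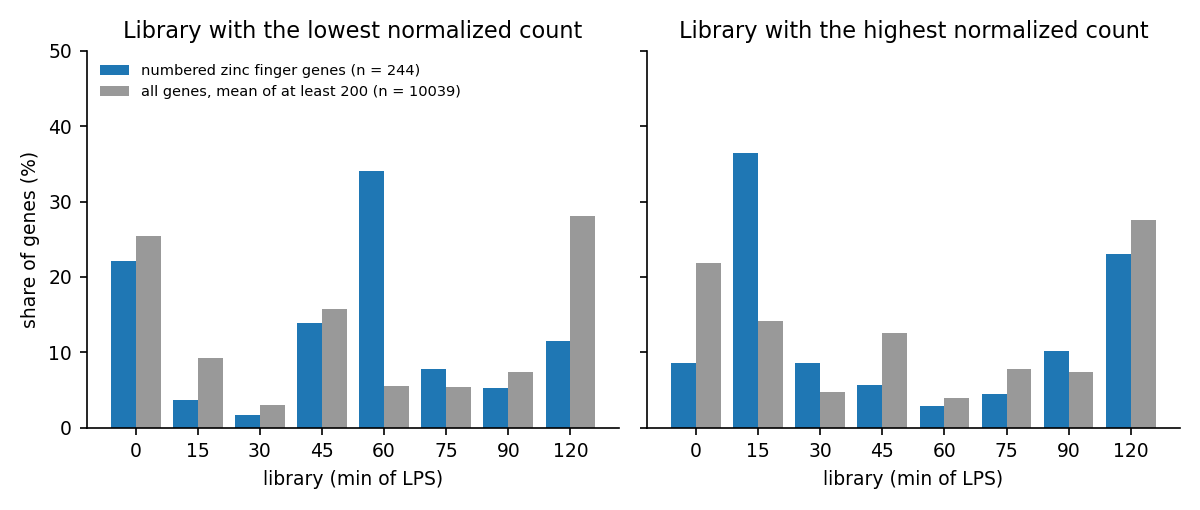
Share of genes in percent (vertical axis) whose lowest (left) or highest (right) normalized count fell in each library, named by min of LPS (horizontal axis), for the 244 members and all 10039 genes. The 60 min library holds the lowest count of 34.0% of members against 5.59% of all genes, and the 15 min library the highest of 36.5% against 14.2%.

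Between 60 and 120 min more members moved up than down. In that comparison 33 members (13.5%) were higher against 4.23% of all genes, and 9 (3.69%) lower against 4.65%. The comparisons of 60 min with 0 min and of 120 min with 60 min share the 60 min library.

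The lowest ratios at 45 min were those of Zfp94, Zfp870, Zfp128, Zfp324 and Zfp553, all genes with 7 to 12 fingers. Zfp94 had 534.7, 503.4, 414.3, 175.1, 166.5, 357.7, 351.7 and 355.0 normalized counts from 0 to 120 min. It was flat to 15 min, fell to its floor at 45 and 60 min and then held an intermediate level. Its ratio at 45 min was 0.327 (95% interval 0.273 to 0.391, exact binomial; such intervals cover counting error only). Zfp870 had 992.4, 1031, 777.1, 361.4, 591.2, 925.2, 957.3 and 916.6 normalized counts. Its minimum was at 45 min and from 75 min it lay near its starting level, with a ratio of 0.364 (0.321 to 0.413) at 45 min. Zfp128 fell to 0.366 (0.293 to 0.454) at 45 min and Zfp553 to 0.424 (0.363 to 0.493).

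Zfp61, the neighbour of Zfp94 on chromosome 7, had the lowest ratio at 60 min among the members. It and the genes of the next sentences were singled out for their 60 min values after those were seen. The annotated spans of Zfp61 and Zfp94 overlap by 2137 bases, although 100% and 99.4% of their 58-base stretches were unique. Its normalized counts were 963.3, 1063, 899.1, 434.8, 204.8, 323.9, 328.8 and 303.9, so the 60 min level was 0.213 of the 0 min level (0.184 to 0.245) and the later libraries stayed between 303.9 and 328.8. Zfp217, a component of CoREST and CtBP corepressor complexes, had 4979, 6000, 5716, 4083, 1449, 1493, 1884 and 2281 normalized counts. Most of its fall came between 45 and 60 min, later than for Zfp94 and Zfp61. Zfp82 went from 436.3 at 0 min to 129.1 at 60 min and 383.3 at 120 min, a rise to 2.97 times the 60 min level (2.46 to 3.60). Zfp296 went from 971.0 through 402.5 to 1032 normalized counts, and Zfp7 from 1223 through 683.8 to 1730. Zfp553, Zfp566 and Zfp949 made up the rest of the 6 members with the highest ratio of 120 to 60 min among those lower at 60 min. None of the 6 was called different from 0 min at 120 min, but they were picked for that rise. Of all 58 members called lower at 60 min, 19 were called higher at 120 than at 60 min. Of the same 58, 27 were called lower than at 0 min at 120 min as well. The matching shares over all genes lower at 60 min were not computed, so neither count is a contrast with other genes. The 58 were also chosen by the 60 min library, which the comparison with 120 min shares.

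**Figure D3:**
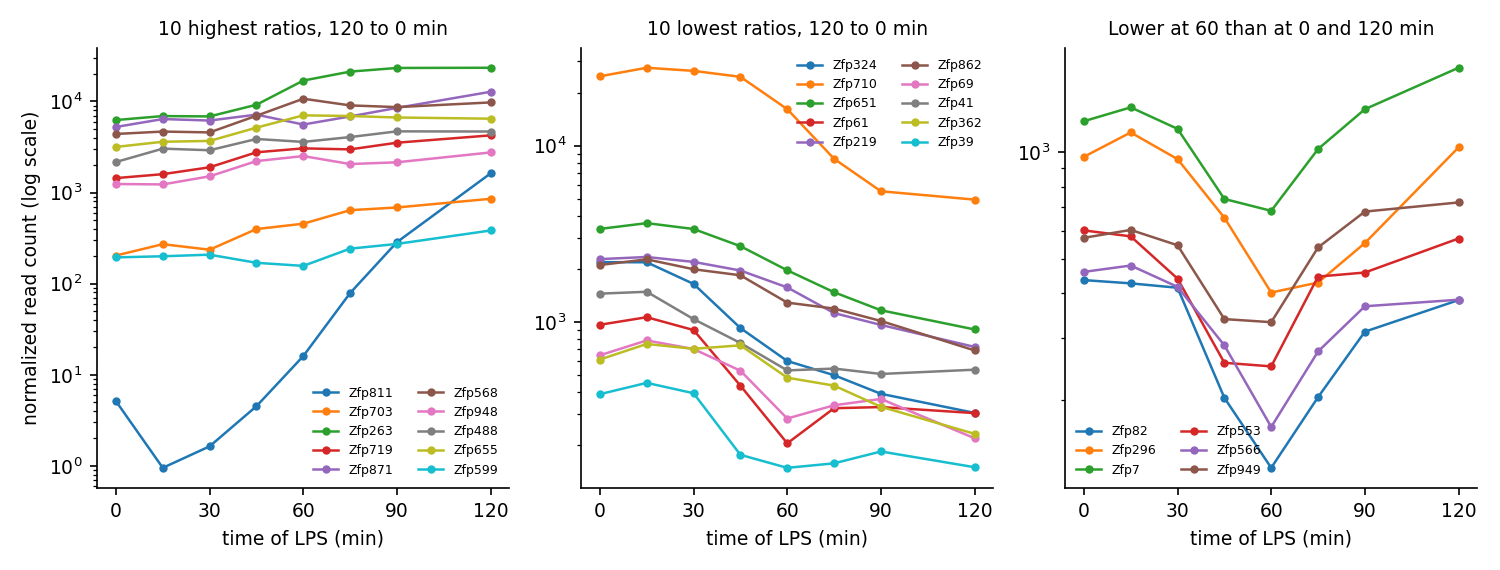
Normalized read counts on a log scale (vertical axis) against time of LPS in min (horizontal axis), 1 point per library, for the 10 members with the highest ratio of 120 to 0 min (left), the 10 with the lowest (middle) and the 6 with the highest ratio of 120 to 60 min among those lower at 60 min (right). Zfp811 climbs from 5.13 to 1624, Zfp324 falls from 2182 to 304.7, and Zfp82 dips to 129.1 at 60 min.

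The decline at 60 min was seen in members with 4 or more fingers. The 28 members with 0 to 3 fingers had a median log2 ratio of 0.16 at 60 min, and 2 of them (7.14%) were lower. The median was -0.25 for the 46 members with 4 to 7 fingers (26.1% lower), -0.19 for the 72 with 8 to 11 (23.6% lower) and -0.33 for the 96 with 12 or more (27.1% lower). The last 3 classes overlapped broadly and showed no regular order with finger number.

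KRAB letters, a run of leucine, valine or isoleucine, then threonine, phenylalanine, any residue, aspartate and valine within the first 200 residues, were found in 50 members. They are a text match rather than a domain assignment, and Zfp148, a Krüppel-type promoter-binding factor, was among the matches. The median log2 ratio of these 50 was -0.26 after 45 min, -0.58 after 60 min, -0.28 after 75 min and -0.14 after 120 min, and 20 of them (40.0%) were lower at 60 min. The 192 members without the letters had a median of -0.17 at 60 min, and 37 (19.3%) were lower. A wider set of letters, chosen after seeing the data, matched 77 members with a median of -0.54. Among members with 12 or more fingers the median was -0.68 for the 32 with KRAB letters and -0.24 for the 64 without, and among those with 8 to 11 fingers it was -0.23 for 16 and -0.14 for 56. At 60 min 4 of the 50 (8.0%) were higher, against 3.96% of all genes, among them Zfp568 and Zfp948 with log2 ratios of 1.28 and 1.02.

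**Figure D4:**
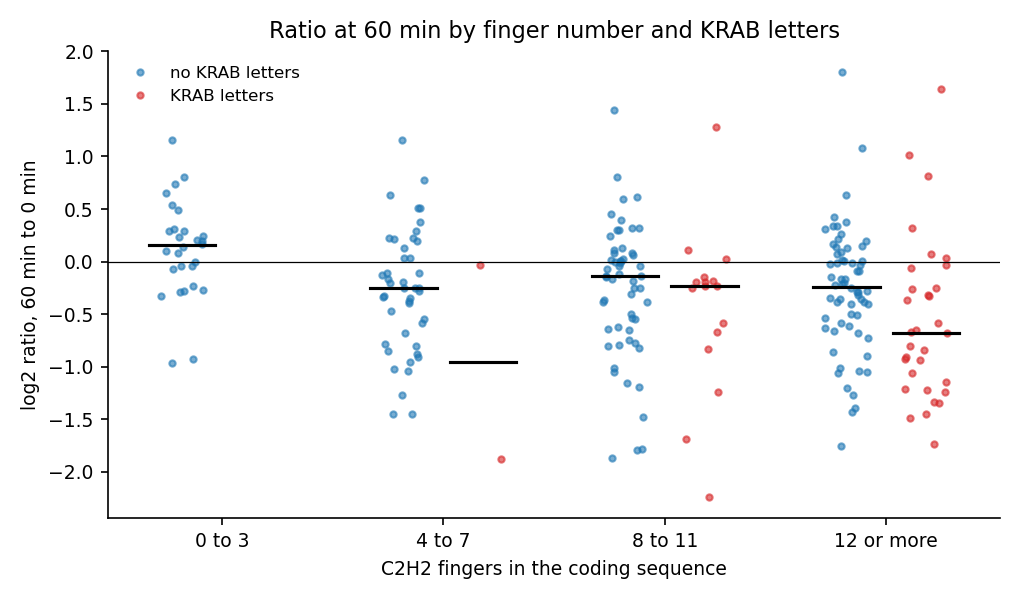
Log2 ratio of normalized counts, 60 min to 0 min (vertical axis), for each of the 242 members with a coding sequence, by the number of C2H2 fingers (horizontal axis) and by the presence of KRAB letters (colour); black bars are medians. The median is 0.16 for 0 to 3 fingers and -0.68 for 12 or more fingers with KRAB letters.

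The cofactors through which KRAB proteins act had a median ratio near that of all genes. Of 18 cofactors found in the table, 0 were called higher and 0 lower at 45, 60 or 120 min, and their median log2 ratio at 60 min was 0.07. At these times 4.69%, 3.96% and 9.18% of all genes were higher and 1.71%, 2.92% and 8.30% lower. Shares of this size leave few calls on a list of this length. Trim28, the corepressor bound by the KRAB box, had a log2 ratio of 0.01 at 60 min and -0.04 at 120 min. Setdb1, the methyltransferase of the complex, had -0.10 and -0.34, and the remodeller subunit Chd4 had 0.46 and 0.51.

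Like genes outside the numbered series gave similar values at 60 min. The 45 Zbtb, Zkscan and Zscan genes, which join BTB, KRAB or SCAN domains to fingers, had a median log2 ratio of -0.22, with 9 lower. The 122 genes outside the members with at least 4 fingers in their coding sequence had a median of -0.20, with 22 (18.0%) lower. Zbtb, Zkscan and Zscan genes were not removed from this set, so it is not separate from the set before it. In these sets, in this order, the 15 min library held the highest count of 40.0% and 34.4% of genes. The 60 min library held the lowest count of 26.7% and 27.0%. Called higher at 120 than at 60 min were 6 (13.3%) and 9 (7.38%), so these traits were not particular to the numbered series. The 172 solute carriers, which share only the mean limit, had a median of -0.03 with 1 (0.581%) lower, and the 10 Krüppel-like factors a median of -0.09 with 1 lower.

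At 120 min the highest ratio belonged to Zfp811, a gene with 13 fingers at chr17:32795676-32810057. It had 6, 1, 2, 4, 18, 56, 225 and 2004 reads from 0 to 120 min, or 5.13, 0.952, 1.64, 4.52, 16.03, 78.9, 285.7 and 1624 normalized counts. Reads were near the floor to 45 min and increased in every library after that, most of all between 90 and 120 min. The 120 min level was 316 times the 0 min level (145 to 863), an interval wide because of the 6 reads at 0 min. Zfp811 passed the mean limit only through its late libraries; of the 4 members whose mean falls under 200 without their highest library, it was the 1 called higher at 120 min. All of its 58-base stretches were unique.

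Zfp871, which starts at chr17:32765496 and ends 7389 bases from Zfp811, went from 5245 normalized counts at 0 min to 5579 at 60 min and 12770 at 120 min, 2.43 times the start (2.36 to 2.51). Zfp799, 5392 bases away on the other side, lay between 723.9 and 1394 normalized counts in all libraries and at 1118 at 0 min. Of these neighbours Zfp811 alone came up from near 0 reads. The 250 bases before the first start listed for Zfp811 (RefSeq, GRCm38.p6, chr17:32809932-32810181, minus strand) are shown because no other member changed as much. The annotated gene span ends at 32810057, so part of this window lies inside the gene.
Zfp811 upstream: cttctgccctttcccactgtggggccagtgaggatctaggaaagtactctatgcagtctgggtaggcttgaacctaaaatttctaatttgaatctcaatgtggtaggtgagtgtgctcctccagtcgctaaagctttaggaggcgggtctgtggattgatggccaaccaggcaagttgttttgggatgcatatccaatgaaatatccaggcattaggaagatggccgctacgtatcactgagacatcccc

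**Figure D5:**
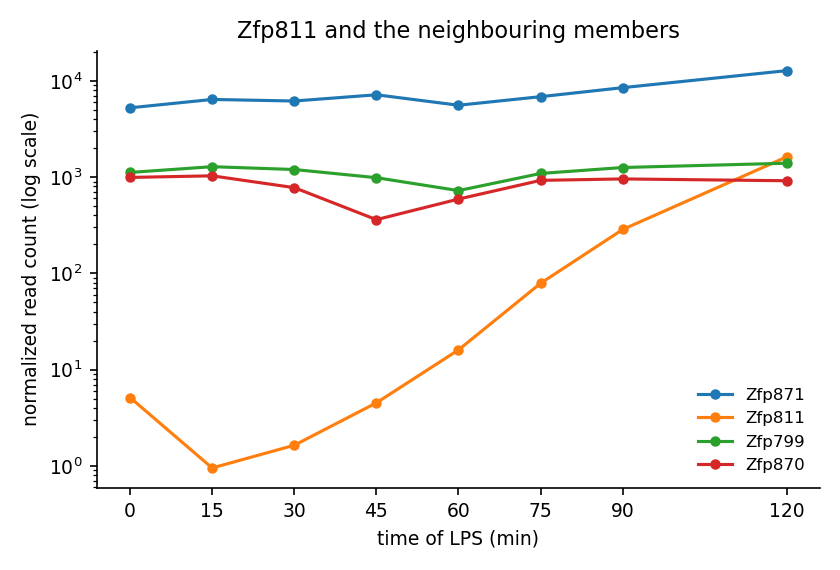
Normalized read counts on a log scale (vertical axis) against time of LPS in min (horizontal axis) for Zfp811 and the members nearest to it on chromosome 17, 1 point per library. Zfp811 rises from 5.13 to 1624, Zfp871 from 5245 to 12770, and Zfp870 has its minimum of 361.4 at 45 min.

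The other members among the 10 highest at 120 min rose from levels that were already measurable. Zfp703, a transcriptional corepressor in which no finger of the usual spacing was found, had 203.6, 271.2, 235.8, 397.6, 455.0, 640.7, 685.6 and 854.2 normalized counts, so that it climbed steadily from 45 min and reached 4.20 times its start (3.64 to 4.85). Zfp263 had 6251, 6909, 6851, 9200, 16950, 21250, 23310 and 23430 normalized counts and levelled off from 90 min, ending at 3.75 times its start (3.65 to 3.85). Zfp719 reached 2.94 times its start (2.79 to 3.11). Zfp568, a KRAB factor that silences a placental Igf2 transcript, Zfp948, Zfp488, a partner of OLIG2 in oligodendrocytes, and Zfp655 lay between 2.04 and 2.22 times the start. Zfp568 and Zfp655 peaked at 60 min, whereas Zfp599 lay below its 0 min level at 45 and 60 min and ended at 1.97 times that level (1.68 to 2.32).

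Some members were highest before 120 min. Zfp420, whose human counterpart restrains p53, had the highest ratio at 45 min, 2.07 (1.87 to 2.30). Its normalized counts of 503.0, 567.1, 614.9, 1042, 1756, 1822, 1619 and 968.5 peaked at 75 min and receded. Zfp654 peaked at 45 min, with 1814 normalized counts against 995.8 at 0 min and 1345 at 120 min. Zfp367 rose from 7711 to 14010 normalized counts at 45 min and then dropped to 5026 at 120 min, the only member of the pattern with an early maximum and a late minimum.

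The lowest ratio at 120 min was that of Zfp324, with 2182, 2178, 1642, 922.7, 600.1, 498.5, 391.0 and 304.7 normalized counts. It declined in every library after 15 min to 0.14 of its start (0.125 to 0.156). Zfp710, among the most abundant members per length, had 24720, 27630, 26530, 24540, 16090, 8414, 5507 and 4937 normalized counts. It held its level to 45 min, was not yet called at 60 min (log2 ratio -0.62) and ended at 0.20 of its start (0.194 to 0.205). Zfp651 ended at 0.269 (0.252 to 0.288), Zfp219 at 0.318 (0.294 to 0.343) and Zfp862, which RefSeq lists as a pseudogene, at 0.328 (0.303 to 0.355). Zfp61, Zfp69, Zfp41, Zfp362 and Zfp39 completed the 10, at 0.316 to 0.385 of the start. Zfp61, Zfp41 and Zfp39 had reached their low level by 60 min, whereas Zfp651, Zfp219, Zfp862 and Zfp362 were still declining at 120 min.

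The 250 bases before the first start listed for Zfp324 (RefSeq, GRCm38.p6, chr7:12965588-12965837, plus strand) are shown as the counterpart of Zfp811. A match to the ETS core CCGGAAG on the opposite strand is in capitals.
Zfp324 upstream: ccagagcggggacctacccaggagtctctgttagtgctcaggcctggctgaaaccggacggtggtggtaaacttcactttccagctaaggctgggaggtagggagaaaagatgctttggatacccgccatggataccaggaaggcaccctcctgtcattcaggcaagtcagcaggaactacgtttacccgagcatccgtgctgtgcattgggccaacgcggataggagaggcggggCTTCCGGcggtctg

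Windows from 250 bases before to 50 after the start were found for 204 members by gene ID, with the first listed window taken for each gene. CCGGAAG on either strand was in 21.1% of them, against 21.2% of 8135 windows of all genes with the same mean limit, in 27.1% of the 48 windows of members lower at 60 min and in 19.2% of those not lower. ACTACAA was in 6.37% of members and 4.97% of all genes, with 5 windows (10.4%) of members lower at 60 min and 8 (5.13%) of those not lower, the cyclic AMP response element TGACGTCA in 3.43% and 3.61%, and the NF-κB motif GGGANTTCC in 3.43% and 2.57%. These are letter matches, not sites, and no test of the shares was made.

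When members were sorted by the order of their maxima and minima, in 5 groups and a remainder, decliners were the largest changing group. Group g0, without any called change, held 142 members (58.2%) against 78.3% of all genes. Group g1, with a first maximum at or after 60 min, held 26 (10.7%) against 9.36%. Group g2, with a first minimum at or after 60 min, held 64 (26.2%) against 9.43%. Of the 64, 41 (64.1%) had that minimum at 60 min, against 11.1% of the 947 g2 genes in all, 15 had it at 120 min, and in 20 a later maximum followed. In g1, 18 of 26 had their first maximum at 120 min. The shares over all genes were not computed for the minimum at 120 min, the later maximum or the g1 maximum. Those counts are therefore not a contrast with other genes.

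The early patterns were rarer. Group g3, with a maximum before 60 min and a later minimum, held Zfp367 alone (0.41%) against 0.986% of all genes. Group g4, with a minimum before 60 min and a later maximum, held 7 members (2.87%) against 0.727%, namely Zfp189, Zfp418, Zfp623, Zfp772, Zfp866, Zfp870 and Zfp952, 6 of them with the minimum at 45 min. A further 4 members (1.64%), Zfp609, Zfp619, Zfp654 and Zfp956, had an early extreme only, against 1.17%.

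The median ratio of the members listed for RNA, ribosome or ubiquitin roles lay above that of the family at 60 min. Of the 11, 0 were lower at 45, 60 or 120 min, when 1.71%, 2.92% and 8.30% of all genes were, and 1 was higher at 120 min, against 9.18% of all genes. This was Zfp593, a factor of large ribosomal subunit assembly, at 1.93 times its start (1.85 to 2.02). Zfp622, Zfp598 and Zfp259, which act in ribosome assembly, ribosome quality control and cell growth, had log2 ratios of 0.42, 0.21 and 0.27 at 120 min, and Zfp622 had 0.54 at 60 min without being called. The median log2 ratio of the list was 0.17 at 60 min and 0.27 at 120 min, above the -0.004 and -0.006 of all genes.

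Of 15 members listed for chromatin complexes and promoter binding, 4 were higher and 2 lower at 120 min, when 9.18% of all genes were higher and 8.30% lower; on a list of this length single genes set the share. The risers were Zfp703, Zfp281, a regulator of pluripotency genes (log2 ratio 0.74), Zfp335, a subunit linked to histone H3 methylation (0.73), and Zfp318, which governs IgD expression in B cells (0.72). The 2 that fell were Zfp217 (-1.13) and Zfp219 (-1.65). Zfp143, an activator of small nuclear RNA promoters, had 0.53 and was not called.

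Of 5 members listed as imprinting and retroelement KRAB factors, 1 was higher at 120 min, Zfp568, against 9.18% of all genes, and 0 were lower at 45, 60 or 120 min. Zfp445, which maintains imprints, had a log2 ratio of 0.67 at 120 min, Zfp809, which silences retroviruses, 0.22, and Zfp961 -0.48. At 60 min Zfp568, Zfp445 and Zfp809 had 1.28, 0.34 and 0.21, and Zfp932 and Zfp961 had -0.29 and -0.67. Zfp708, of the same list but below the mean limit, was called lower at 45, 60 and 120 min. Zfp131, the 1 member listed for a BTB domain, was higher at 60 min with a log2 ratio of 0.78 and not at 120 min, with 0.37.

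The steadiest members over the 8 libraries were Zfp68, Zfp821, Zfp277, Zfp938 and Zfp706, whose log2 normalized counts spanned 0.17 to 0.21. Zfp68 lay between 3896 and 4380 normalized counts throughout. The median span of the members was 0.74, against 0.42 for all genes.

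By place in the genome, members grouped on few chromosomes. Chromosome 7 held 61 of the 244, chromosome 17 held 33 and chromosome 13 held 20. The median log2 ratio at 60 min was -0.35 on chromosome 7, with 21 (34.4%) lower, -0.18 on chromosome 17, with 8 (24.2%) lower, and -0.35 on chromosome 13, with 3 (15.0%) lower. The 15 members on chromosome 6 had a median of -0.39, with 5 (33.3%) lower, and the 16 on chromosome 9 one of 0.02, with 3 lower, so chromosome 7 did not have the lowest median. The 116 members with another member's start within 100 kb had a median of -0.33 and 35 (30.2%) lower, whereas the 128 without one had a median of -0.05 and 23 (18.0%) lower. Neighbours share descent and sequence and are not independent of each other.

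Among the 9 runs of at least 5 members, medians at 60 min ranged from -1.22 to -0.17. The lowest was that of Zfp180, Zfp235, Zfp111, Zfp61 and Zfp94, at chr7:24081877-24316698, with 3 of 5 lower. The largest, 13 members around Zfp84 and Zfp146 at chr7:29768552-30169775, had a median of -0.32 with 5 lower, yet it also held the risers Zfp420 and Zfp568 beside Zfp82, which fell. The run on chromosome 17 with Zfp811 and Zfp871 held 8 members, 3 of them lower at 60 min, including Zfp763. Rising and falling members thus lay side by side within single runs.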

How the data were processed

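Members and gene lists were chosen with earlier results of these data known. The authors mapped 58-base reads with Bowtie to RefSeq transcripts of build mm10 with at most 2 mismatches, and discarded reads that matched more than 1 gene symbol. The sources used here state neither the Bowtie version nor the strand setting. The submitters' processing notes name CASAVA 1.8.2 and DESeq 1.10.1. The deposited values are raw read counts per gene for 23143 rows. The 2 spike-in transcripts (0.0208% to 0.0316% of counts) stayed out of scaling and tests. All per-sample columns were used.

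From these, median-of-ratios size factors, a parametric dispersion (0.0287 + 0.853/mean) fitted with all 8 libraries taken as replicates, and an exact test of each pair of libraries under that negative binomial model were computed, after the study's methods, in Python 3.11.15 with numpy 2.4.6, because 1 library per time leaves edgeR's quasi-likelihood test no residual degrees of freedom. On simulated data for 60 min against 0 min, 200 of 200 genes changed 4-fold were called and 11 of 9839 unchanged ones. The simulated counts had a smaller dispersion than the one fitted here, and no smaller change was simulated. These numbers check the code and give no error rate for the calls above. Ratios carry exact conditional binomial 95% intervals, which cover counting error only. No single-gene p-value is printed.

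Transcript lengths, coding sequences and 58-base stretches came from GENCODE vM21 (GRCm38) by RefSeq accession, for 243 members, in place of a protein table. Gene positions and promoter windows came from RefSeq (GRCm38.p6). A finger is C, 2 to 4 residues, C, 12 residues, H, 3 to 5 residues, H. Of the 244 symbols, 5 differ in RefSeq.

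Named members are the 10 highest and 10 lowest ratios at 120 min, the 5 highest and 5 lowest at 45 min, the 5 highest levels per length, the 5 steadiest, those beside the limit and those in the function lists; those named for 60 min, for genome position or for a group of 7 or fewer were added after their values were seen. Alternatives used TMM factors from edgeR 4.0.16 and the dispersion trend of DESeq2 1.42.0, both in R 4.3.3.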

Additional observations from a re-analysis of the deposited data

How the results depend on the processing

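The median log2 ratio of the members at 60 min was negative under each of the 13 alternatives that recompute it, 9 of them planned. Total counts with and without Rn45s gave -0.327 and -0.332 in place of -0.231. The medians of the members' lower and upper interval bounds were -0.343 and -0.093, which is not an interval for the median itself. Beyond them lay the values with spike-in reads as the scale (-0.53) and with 15 min as the start in place of 0 min (-0.35). These last 2 were added after seeing the data, as were the sets with unique 58-base stretches or with at least 1 finger. At 45 min total counts gave -0.30. At 120 min the median of 0.02 was -0.18 with total counts, -0.17 with total counts without Rn45s, -0.092 with spike-in reads and -0.094 from 15 min.

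Members higher at 45, 60 and 120 min (10, 13 and 22) numbered 1, 7 and 8 with total counts, 7 and 9 at 60 and 120 min without Rn45s, and 4 and 10 there with spike-in reads. A log2 fold limit of 1 gave 1, 8 and 9 higher and 11, 36 and 20 lower, in place of 28, 58 and 36 lower. Benjamini-Hochberg adjustment gave 0, 4 and 9 higher and 4, 23 and 20 lower, and the fold limit alone gave 19, 21 and 44 higher and 57 lower at 45 min. A mean of at least 500 left 17, 31 and 22 lower. At 45 min spike-in reads gave 15 lower, members with unique stretches gave 18, and the 15 min start gave 5 higher. The set with unique stretches held 159 members, and that with a mean of at least 500 was also smaller than the full set. Shares over all genes were computed only for total counts, spike-in reads and adjustment, at 60 and 120 min. The other counts here are therefore not a contrast with other genes.

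The 33 members higher at 120 than at 60 min became 12 with total counts, 18 without Rn45s, 13 with a limit of 1, 7 after adjustment, 64 with the fold limit alone, 18 with a mean of at least 500 and 20 with unique stretches. The 26 g1 members became 10 with total counts, 10 without Rn45s, 13 with spike-in reads, 10 with a limit of 1, 10 after adjustment, 45 with the fold limit alone and 17 from 15 min. The 64 g2 members became 35 after adjustment and 35 with a mean of at least 500. For the counts of this paragraph no shares over all genes were computed under the alternatives. The causes were not tested, apart from the fewer members under the stricter limits.

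For the 20 members named at 120 min, 0 of 160 ratios changed sign under the 8 alternatives that recompute them. Of 220 calls, 213 were kept under the 11 that can lose them, with 7 lost (Zfp599, Zfp655 and Zfp488). These members were picked as the extremes of the same ratio, so a change of sign was hardly possible. The kept calls are therefore no independent check. No paired analysis was possible because each time point has 1 library. Leaving out a replicate was not possible for the same reason. The absence of a second library limits every ratio.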
